A study of Mus musculus with 8 samples.

Results

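The 9 genes described here code for transcription factors of the integrated stress response and for regulators that these factors switch on: Atf4, Atf5, Atf3, Ddit3, Trib3, Cebpb, Cebpg, Nupr1 and Ppp1r15a. They were chosen by symbol, from 32285 annotated genes, and followed in single-nucleus RNA sequencing of whole hearts from 4 wild-type (WT) and 4 Tafazzin-knockout (Taz-KO) mice. All mice were male and 9 weeks old, the tissue was minced and cryopreserved, and nuclei were released from it for 1 droplet library (10x Genomics, 3′ v3.1) per mouse. Tafazzin, the product of the Taz gene, is the acyltransferase that remodels cardiolipin, the phospholipid of the inner mitochondrial membrane, and its loss in people causes Barth Syndrome. The comparison asked which of the 9 genes changed with the loss of Taz, and in which cells of the heart. The strain of the mice, the construction of the knockout allele and whether pairs of mice were littermates are not given in the sources used here.

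In the integrated stress response, kinases that sense amino acid shortage, unfolded protein, double-stranded RNA or haem shortage phosphorylate the translation factor eIF2alpha. Protein synthesis then falls in general, while the messenger RNAs of ATF4 and some other factors are translated better through upstream open reading frames in their leaders. ATF4 and its bZIP partners bind a composite element in front of genes for amino acid synthesis, amino acid transport and tRNA charging, and in muscle cells the pathway is known to answer mitochondrial faults. Messenger RNA measurements do not see the translational step.

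The members take different positions in this pathway. ATF4 and ATF5 are bZIP activators that are controlled in large part by translation. ATF3 and DDIT3 (CHOP) are bZIP factors made downstream of ATF4, and C/EBPγ and C/EBPβ are bZIP partners with which ATF4 and CHOP form dimers. NUPR1 is a small stress-induced chromatin protein, and TRIB3 is a pseudokinase that binds ATF4 and AKT and is induced by ATF4 and CHOP. PPP1R15A (GADD34) is a regulatory subunit of the phosphatase that removes the phosphate from eIF2alpha.

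Promoter sequences are shown because several members are themselves known targets of ATF4. The composite element bound by ATF4 with a C/EBP partner was searched as TGATGNAA on both strands in the 300 bases around each start site (250 before and 50 after, RefSeq, GRCm38.p6). It was present in 3 of the 9 members, Atf3, Nupr1 and Trib3, and in 1219 of all 27025 genes with a promoter (4.51%). The windows below are 30 bases long, 5′ to 3′ on the strand of the gene, with the match in capitals; TTGCATCA and TTACATCA are the element read from the opposite strand. The Ppp1r15a window instead holds the cAMP response element TGACGTCA, which reads the same on both strands, occurred in 1 of the 9 members and was found in 2.03% of all genes.
Atf3, chr1:191183425-191183454, minus strand: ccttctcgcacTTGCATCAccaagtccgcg
Nupr1, chr7:126625562-126625591, minus strand: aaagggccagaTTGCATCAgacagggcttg
Trib3, chr2:152344028-152344057, minus strand: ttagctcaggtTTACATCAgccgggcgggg
Ppp1r15a, chr7:45526262-45526291, minus strand: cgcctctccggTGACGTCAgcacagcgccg
For comparison, the windows of 3 downstream genes are Chac1, a glutathione-degrading enzyme, Asns, asparagine synthetase, and Fgf21, a secreted stress hormone.
Chac1, chr2:119351038-119351067, plus strand: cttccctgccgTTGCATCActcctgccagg
Asns, chr6:7693214-7693243, minus strand: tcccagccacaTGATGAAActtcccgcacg
Fgf21, chr7:45615611-45615640, minus strand: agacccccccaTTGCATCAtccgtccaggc
The element lies 110 bases before the RefSeq start site in Atf3 and Nupr1, and 15 bases after it in Trib3. These RefSeq starts differ from the ends of the GENCODE gene spans given below, inside which the Atf3 and Nupr1 windows lie. Of 30 downstream target genes with a promoter in the table, 10 held it. A match of letters is a description of the sequence and not a measured binding site.

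The genes lie on 5 chromosomes of GRCm38. Atf3 is at 1:191170296-191218039, Trib3 at 2:152337422-152344032, Cebpb at 2:167688915-167690418, Ddit3 at 10:127290774-127296288 and Atf4 at 15:80255184-80257541. Chromosome 7 holds the other 4, Cebpg at 35046422-35056573, Atf5 at 44812256-44816658, Ppp1r15a at 45522916-45526268 and Nupr1 at 126623249-126630861. Reads in introns were counted. Ddit3 is annotated at 2 feature rows that overlap on the same strand, and the second held 0 UMIs in every mouse and cell type examined, so values of Ddit3 are those of the first. Cebpg overlaps 2 small genes on its own strand, and Atf5, Ddit3, Cebpb and Ppp1r15a overlap protein-coding genes on the opposite strand.

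Between 3492 and 36308 barcodes and between 20025456 and 348080773 UMIs were deposited per library, and the median barcode held 1581 to 9574 UMIs. The libraries of Taz-KO mice 4685 and 5301 held the fewest barcodes, 3492 and 5571, and reached down to 500 UMIs, and results that depend on either are given without it. Libraries shared at most 1.05% of the barcodes of the smaller library. Each of the other 6 libraries held at least 21190 barcodes. Such libraries have more barcodes than the nuclei that the methods of the study give per heart. Whether some barcodes are empty droplets was not tested, and counts and shares of nuclei below are those of the barcodes kept. After filters and removal of 16231 likely doublets, 151264 nuclei were clustered and 112485 of them fell in clusters named by marker genes. Cardiomyocyte-like clusters, named for markers led by Ryr2 and Ttn, held 29181 nuclei, fibroblast-like clusters (Pdgfra, Bicc1) 36436, endothelial-like clusters (Ptprb, Flt1) 21292 and macrophage-like clusters (F13a1, Mrc1) 11703. In the same order, Taz-KO mouse 4685 gave 209, 207, 288 and 53 nuclei and mouse 5301 gave 880, 688, 452 and 433, the fewest of all mice. Sums of UMIs over the nuclei of a type in a mouse are given as CPM, which is relative to the total of that sum without mitochondrial genes. Taz itself, the check of the labels, was lower in Taz-KO cardiomyocytes, at 34.9 ± 6.07 CPM against 51.4 ± 2.99 CPM in WT (SD, n = 4 mice each; log2 fold change -0.68, SE 0.17, adjusted p = 0.0208), and the groups did not overlap. Taz was not called in fibroblasts (log2 fold change -0.55, adjusted p = 0.330, with mouse 5301 at 34.2 CPM beside a WT minimum of 34.5 CPM), endothelial cells (-1.11, adjusted p = 0.0841) or macrophages (-0.91, adjusted p = 0.189), although the mice did not overlap. Taz UMIs were thus still counted in Taz-KO, and which part of the gene the allele lacks is not given in the sources used here.

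All adjusted p-values below come from edgeR's quasi-likelihood test over all genes tested in a cell type, with the mouse as the replicate. In cardiomyocytes, 6 of the 9 members rose in Taz-KO at an adjusted p below 0.05, Trib3, Nupr1, Cebpg, Atf5, Ddit3 and Ppp1r15a, and none fell. Across all 18465 genes tested there, 8.48% were called higher and 6.37% lower. The same 6 genes were those in which every Taz-KO mouse exceeded every WT mouse, which held for 15.2% of all genes. Atf4, Cebpb and Atf3 had higher Taz-KO means, but their mice overlapped and their adjusted p missed the threshold. The median log2 fold change of the 9 members was 1.25, beside -0.01 over all genes. Without mice 4685 and 5301 together, 6 members were called where 6.46% of genes were called higher, but the set differed: Ppp1r15a was lost (log2 fold change 0.50, adjusted p = 0.314) and Atf4 entered (0.81, adjusted p = 0.0334).

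**Figure D1:**
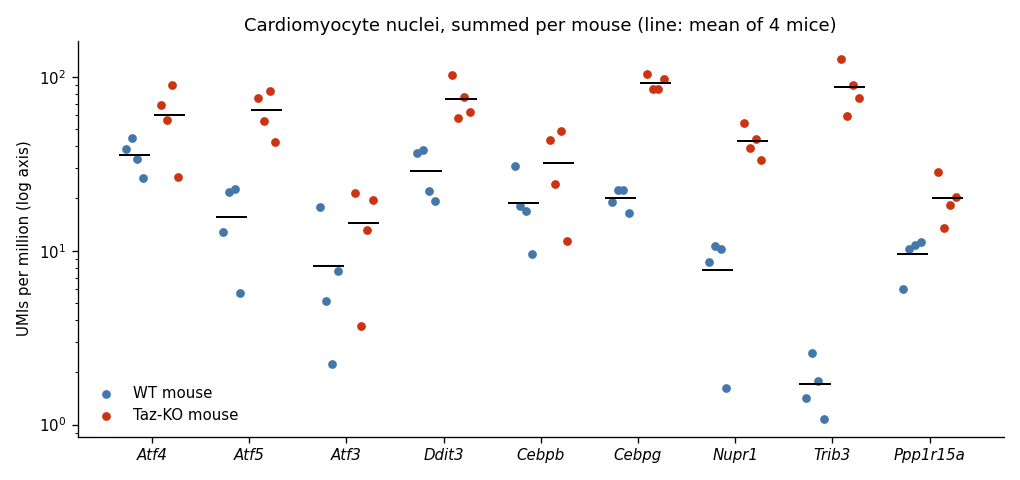
CPM of the 9 members in cardiomyocyte nuclei on a log axis, 1 point per mouse, WT beside Taz-KO, with a line at the mean of each group (n = 4). Trib3 has the widest gap, from 1.08 to 2.60 CPM in WT and from 59.3 to 127 CPM in Taz-KO, while Atf4, Atf3 and Cebpb have mice of both genotypes in the same range.

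The pseudokinase gene Trib3 changed most. Its level in cardiomyocytes was 1.42, 2.60, 1.79 and 1.08 CPM in WT mice 4686, 4909, 5355 and 5356, and 127, 59.3, 89.4 and 75.4 CPM in Taz-KO mice 4685, 4910, 5300 and 5301. Every Taz-KO mouse stood far above every WT mouse, and the 4 WT sums held 364 UMIs in all against 10728 in Taz-KO. The means were 1.72 ± 0.651 and 87.9 ± 29.1 CPM (SD, n = 4), a ratio of 51.0, with a log2 fold change of 5.54 (SE 0.29, 95% interval 4.89 to 6.18, adjusted p = 1.39e-06).

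Of the 9 members, the bZIP partner gene Cebpg had the smallest SE in cardiomyocytes. It stood at 19.1, 22.5, 22.4 and 16.5 CPM in the WT mice, in the same order, whereas the Taz-KO mice held 104, 85.3, 85.3 and 97.0 CPM. The groups were far apart, with means of 20.1 ± 2.87 and 92.8 ± 9.11 CPM and a log2 fold change of 2.10 (SE 0.17, adjusted p = 1.89e-05). Cebpb, its relative, held 30.8, 18.1, 16.9 and 9.52 CPM in WT and 43.3, 24.1, 48.9 and 11.3 CPM in Taz-KO. Its groups overlapped, since the WT maximum lay above the levels of Taz-KO mice 4910 and 5301 (log2 fold change 0.58, SE 0.40, adjusted p = 0.398).

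The chromatin protein gene Nupr1 stood at 8.65, 10.6, 10.2 and 1.63 CPM in WT and at 54.2, 39.2, 44.1 and 33.1 CPM in Taz-KO. All Taz-KO values exceeded all WT values, and WT mouse 5356 was well below the other WT mice. The means of 7.76 ± 4.17 and 42.6 ± 8.92 CPM gave a log2 fold change of 2.36 (SE 0.44, adjusted p = 0.00722). Atf5 was similar in shape, with 12.8, 21.9, 22.5 and 5.70 CPM in WT and 75.7, 56.1, 82.6 and 42.4 CPM in Taz-KO. Mouse 5356 was again the lowest WT mouse and mouse 5301 the lowest Taz-KO mouse, without overlap. The log2 fold change of Atf5 was 1.91 (SE 0.33, adjusted p = 0.00408), from means of 15.7 ± 8.03 and 64.2 ± 18.4 CPM. Its call was lost when ambient RNA was subtracted at a share of 0.2, where the log2 fold change was 3.30 (adjusted p = 0.113). That subtraction left no Atf5 counts in WT mouse 5356, so nothing is read from the loss. The part of free RNA in the rise of Atf5 was not tested.

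Ddit3, which codes for CHOP, had the same order of genotypes at a smaller distance. Its levels were 36.3, 37.7, 22.1 and 19.2 CPM in WT and 103, 57.9, 77.1 and 62.6 CPM in Taz-KO. The lowest Taz-KO mouse, 4910, remained above the highest WT mouse, 4909 (log2 fold change 1.25, SE 0.23, adjusted p = 0.00399). Ppp1r15a, the phosphatase subunit gene, held 6.03, 10.2, 10.7 and 11.3 CPM in WT and 28.5, 13.6, 18.3 and 20.4 CPM in Taz-KO. Its groups were separate but close, with a log2 fold change of 0.92 (SE 0.27, adjusted p = 0.0429), and the call was lost under 10 of 16 alternatives, among them leaving out any of 6 single mice.

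Atf4, the factor at the head of the pathway, did not pass the test in messenger RNA. In WT it was at 38.3, 44.7, 33.9 and 26.1 CPM, and in Taz-KO at 68.5, 56.4, 89.8 and 26.4 CPM. Of the Taz-KO mice, 4685, 4910 and 5300 were above all WT mice, and mouse 5301 was at the level of the lowest WT mouse. The log2 fold change was 0.59 (SE 0.24, unadjusted p = 0.0343, adjusted p = 0.138). Without mouse 5301 it was 0.82, and the adjusted p was then 0.0150. Over 15 alternatives the log2 fold change of Atf4 ran from 0.13 to 0.82, and it was called in 2. Atf3 held 17.8, 5.14, 2.24 and 7.68 CPM in WT and 21.4, 3.67, 13.2 and 19.6 CPM in Taz-KO. WT mouse 4686 lay near the highest Taz-KO mice and Taz-KO mouse 4910 near the low WT mice, and the log2 fold change of 0.64 had an SE of 0.69 (adjusted p = 0.624).

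Within the cardiomyocyte-like nuclei the clusters were represented unequally by genotype, as cluster 15 made up 10.95 to 16.3% of them in Taz-KO mice and 1.64 to 3.03% in WT mice. In the most frequent cluster taken alone, cluster 2, every Taz-KO mouse was above every WT mouse for each of the 6 called members. These were called in sums that include cluster 2, with 41.8 to 51.05% of the nuclei in Taz-KO mice and 64.3 to 68.6% in WT mice. The share of all genes was not measured there, so nothing is read from the number of members. In cluster 19, with 11 and 13 nuclei in Taz-KO mice 4685 and 5301, Atf5, Ddit3 and Ppp1r15a overlapped. Ppp1r15a also overlapped in clusters 21 and 29. Trib3 there was 0.94 to 2.09 CPM in WT and 49.8 to 120 CPM in Taz-KO, and Cebpg 15.3 to 20.3 against 81.9 to 103 CPM. In cluster 15 Trib3 was 0.94 to 8.20 CPM in WT and 92.2 to 175 CPM in Taz-KO.

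In cardiomyocyte nuclei the summed level of the cardiomyocyte markers was 45000 to 61910 CPM in WT and 34450 to 53690 CPM in Taz-KO. Of 12 marker lists of other cells, 10 overlapped between genotypes. The smooth muscle list was higher in Taz-KO, 62.3 to 234 CPM against 12.8 to 51.0 CPM, mostly Acta2 (49.4 to 227 CPM against 6.79 to 30.3 CPM). The B lymphocyte list was lower, 9.49 to 19.4 CPM against 25.0 to 34.2 CPM. The part of these nuclei in the changes of the members was not tested.

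Of the 13148 Taz-KO cardiomyocyte nuclei, mouse 4685 held 209 and mouse 5301 held 880. Detection per nucleus was compared after each cardiomyocyte nucleus was thinned to 1000 UMIs, which left out 34 Taz-KO nuclei and none of 16033 WT nuclei. Trib3 was then found in 0.218, 0.446, 0.105 and 0.0555% of the nuclei of WT mice 4686, 4909, 5355 and 5356, and in 12.5, 5.36, 8.24 and 6.73% of those of Taz-KO mice 4685, 4910, 5300 and 5301. Every Taz-KO share was above every WT share (exact two-sided permutation test over mice, p = 0.0286, the smallest that 4 against 4 allows). Without thinning the shares were 1.19 to 3.30% and 35.5 to 77.0%.

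Cebpg, Atf5, Ddit3 and Nupr1 also had shares that did not overlap. The share of all genes for which this holds was not measured, so nothing is read from the number of such members. Cebpg was detected in 1.80 to 2.80% of WT and 7.45 to 9.14% of Taz-KO nuclei, and Nupr1 in 0.388 to 1.195% and 3.19 to 6.25%. Atf5 was found in 0.804 to 2.54% of WT and 5.08 to 10.1% of Taz-KO nuclei, and Ddit3 in 1.94 to 3.69% and 5.30 to 8.65%. The unadjusted exact p was 0.0286 for each of the 4 genes, the smallest the design allows, so shares of single genes rest on non-overlap of the mice. Atf4, at 3.33 to 4.96% and 2.48 to 10.0% (exact permutation p = 0.143), overlapped, as did Atf3, Cebpb and Ppp1r15a. Without thinning, Ddit3 overlapped (17.2 to 36.9% and 29.9 to 74.6%, exact permutation p = 0.114), whereas Atf5, Cebpg and Nupr1 did not. At 2000 UMIs, Ppp1r15a did not overlap (1.69 to 2.26% and 2.42 to 8.21%).

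Nuclei with UMIs of 2 or more members were compared in the same way. They were 0.901, 1.46, 0.784 and 0.693% of the thinned cardiomyocyte nuclei in the WT mice and 13.5, 5.71, 10.3 and 4.84% in the Taz-KO mice. The groups did not overlap, and the difference of the means was 7.62 percentage points (exact two-sided permutation test, p = 0.0286). Nuclei with 1 or more members were 10.8 to 16.8% in WT and 29.5 to 50.5% in Taz-KO.

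**Figure D2:**
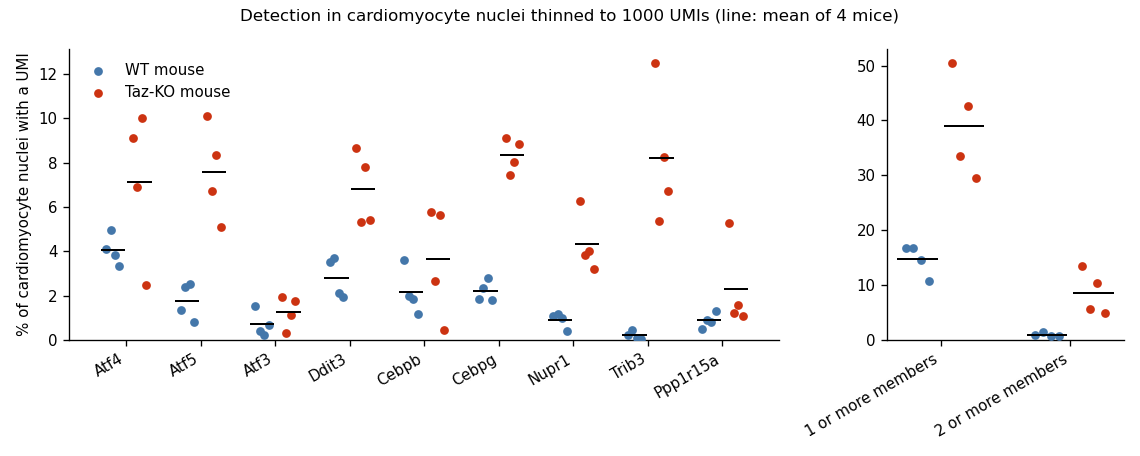
Percent of cardiomyocyte nuclei with at least 1 UMI of each member after thinning to 1000 UMIs, and percent with 2 or more members, 1 point per mouse, WT beside Taz-KO, with a line at the mean. Trib3 lies at or below 0.446% in WT and at or above 5.36% in Taz-KO, whereas the points of Atf4, Atf3, Cebpb and Ppp1r15a overlap.

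As a background for such shares, the barcodes with the fewest UMIs, a share of 0.1 of each library, were measured with the same thinning. In them Trib3 was found in 0.330 to 1.02% of WT barcodes and in 5.46 to 7.08% of those of 3 Taz-KO mice, since none of mouse 5301 reached 1000 UMIs. In WT cardiomyocytes the Trib3 share was thus at or below 0.446%, and in Taz-KO cardiomyocytes 5.36 to 12.5%, at the level of these barcodes in mouse 4910 and above it in mice 4685 and 5300. In fibroblasts the Trib3 share was 0.415 to 0.808% in WT and 0.728 to 3.40% in Taz-KO. In mice 4685, 4910 and 5300, at 1.93, 3.35 and 3.40%, it was below that of the lowest-UMI barcodes of the same mouse.

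For the other members, the same background was compared in Taz-KO mice 4685, 4910 and 5300. Cebpg was detected in 4.62, 6.94 and 6.68% of their lowest-UMI barcodes, below its cardiomyocyte shares of 9.14, 7.45 and 8.04%. Atf5 was in 18.8, 15.6 and 12.0% of these barcodes, above its cardiomyocyte shares of 10.1, 6.74 and 8.33%, and Nupr1 in 8.62, 5.70 and 5.02%, above 6.25, 3.83 and 4.02%. Ddit3, at 10.5, 7.93 and 7.12%, was above the cardiomyocyte share in mice 4685 and 4910 (8.65 and 5.30%) and below it in mouse 5300 (7.79%). Barcodes with 2 or more members were 23.7, 13.9 and 13.7%, above the cardiomyocyte share of each of these mice. Thus the Taz-KO cardiomyocyte shares of Atf5 and Nupr1, and of nuclei with 2 or more members, did not exceed this background in these mice. Most of these barcodes were themselves kept as nuclei, 3621 of 3631 in mouse 4910, where 119 were named cardiomyocytes. The comparison therefore cannot tell free RNA from RNA of other nuclei. The part of free RNA in the differences between genotypes was not tested.

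Outside cardiomyocytes, Trib3 was the only member called in each of the 3 other cell types by the main test. In fibroblasts it was at 7.03, 7.96, 8.52 and 5.89 CPM in WT and 23.7, 33.7, 34.4 and 11.9 CPM in Taz-KO (log2 fold change 1.77, SE 0.29, adjusted p = 0.0410). In endothelial cells it was at 9.17, 8.79, 10.8 and 10.6 CPM and 50.2, 44.2, 45.5 and 17.6 CPM (1.96, SE 0.26, adjusted p = 0.0157). In macrophages it was at 3.67, 4.52, 4.96 and 4.24 CPM and 41.3, 41.0, 41.1 and 9.51 CPM (2.89, SE 0.39, adjusted p = 0.0192). There Taz-KO mice 4685 and 5301 gave 14 and 9 UMIs of Trib3, from 53 and 433 nuclei. The genotypes did not overlap in any of the 3 types, and Taz-KO mouse 5301 was the lowest Taz-KO mouse in each. Of all genes tested, 0.255% were called higher in fibroblasts, 0.36% were in endothelial cells and 0.179% were in macrophages. With 1 mouse left out, the call held in fibroblasts and macrophages in the fit without mouse 5301 and was lost in the other 7 (adjusted p up to 0.217 and 0.137), and in endothelial cells it held without 5301 or 5356 and was lost in the other 6 (up to 0.109). In these nuclei 11 of 12 marker lists of other cells overlapped between genotypes in each type. The B lymphocyte list was lower in Taz-KO fibroblasts (16.1 to 49.4 CPM against 50.8 to 68.8 CPM) and endothelial cells (28.0 to 58.5 CPM against 63.9 to 97.1 CPM), and the dendritic list in macrophages (47.5 to 61.3 CPM against 62.8 to 98.9 CPM), and their part was not tested.

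Cebpg was the other member whose genotypes did not overlap in these cells. Genes with all Taz-KO mice above all WT mice made up 2.59% of those tested in macrophages, 3.73% in endothelial cells and 4.55% in fibroblasts. Its change was small. It went from 59.9 ± 3.32 to 74.2 ± 6.22 CPM in fibroblasts (log2 fold change 0.23, SE 0.12, adjusted p = 0.641), from 54.6 ± 5.94 to 73.1 ± 2.55 CPM in endothelial cells (0.34, SE 0.14, adjusted p = 0.519) and from 68.6 ± 7.07 to 104 ± 19.8 CPM in macrophages (0.55, SE 0.20, adjusted p = 0.587).

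Mouse 5301 stood low for most members outside cardiomyocytes. Its library had 1.57% mitochondrial UMIs, beside 7.01 to 23.7% in the others, and its fibroblast nuclei held 2594 CPM of cardiomyocyte markers, beside 5802 to 10680 CPM in WT, and the part of these in its low values was not tested. It was the lowest Taz-KO mouse for 8 of 9 members in fibroblasts and in endothelial cells and 7 in macrophages, against 4 in cardiomyocytes. Atf4 in fibroblasts, for one, was 91.9, 122 and 156 CPM in Taz-KO mice 4685, 4910 and 5300 and 31.3 CPM in mouse 5301, beside 51.1 to 72.5 CPM in WT. With mouse 5301 left out, the other 3 Taz-KO mice were above all WT mice for 7 members in fibroblasts and for 8 in endothelial cells and macrophages, as were 10.1%, 10.9% and 9.36% of all genes in fibroblasts, endothelial cells and macrophages. The fits without it called Trib3 and Ddit3 in fibroblasts, Atf4 as well in endothelial cells, and Atf4 and Atf5 as well in macrophages, where 0.615%, 0.798% and 0.707% of genes were called higher. WT mouse 5356 was the lowest WT mouse for 7 members in cardiomyocytes and fibroblasts, 6 in macrophages and 5 in endothelial cells.

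Ddit3 had log2 fold changes from 1.22 to 1.73 in the 4 types. In endothelial cells it was 16.2, 23.1, 14.9 and 13.8 CPM in WT and 71.3, 55.1, 53.8 and 22.8 CPM in Taz-KO (log2 fold change 1.52, SE 0.30, adjusted p = 0.0778). In fibroblasts the log2 fold change was 1.22 (SE 0.35, adjusted p = 0.237) and in macrophages 1.73 (SE 0.37, adjusted p = 0.154). None of these passed the test, and in each type the level of mouse 5301 lay within the WT range. Without that mouse Ddit3 was called in all 3, with log2 fold changes of 1.47 in fibroblasts (adjusted p = 0.0119), 1.71 in endothelial cells (adjusted p = 0.00449) and 1.94 in macrophages (adjusted p = 0.00288).

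**Figure D3:**
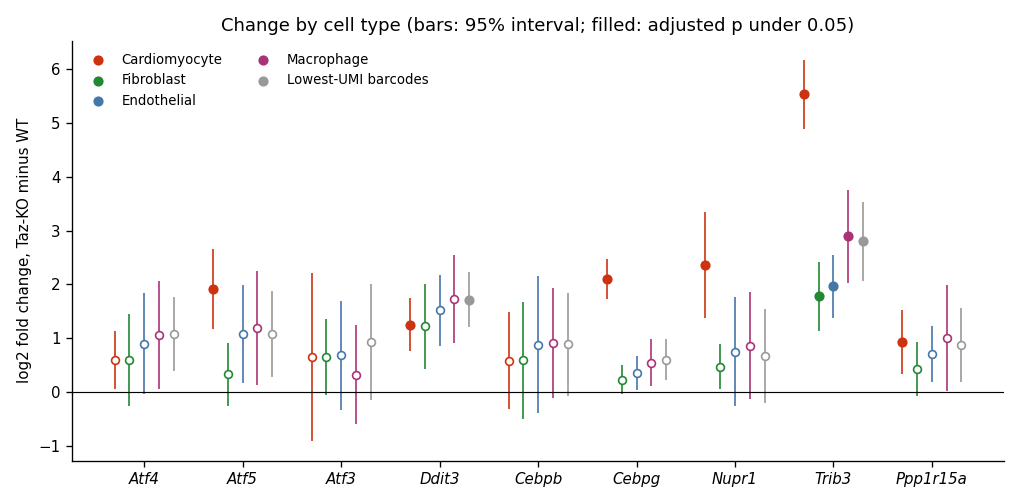
Log2 fold change, Taz-KO over WT, of each member in cardiomyocytes, fibroblasts, endothelial cells, macrophages and the lowest-UMI barcodes, with the 95% interval of the edgeR fit as bars and filled points where the adjusted p was below 0.05. Trib3, Cebpg and Nupr1 stand higher in cardiomyocytes than in the 3 other cell types, although the Nupr1 interval overlaps those of endothelial cells and macrophages. The intervals of Ddit3, Atf4 and Cebpb overlap across types.

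Whether the change differed between cell types was tested by the interaction of genotype and cell type, with the mouse as a block. Trib3 rose more in cardiomyocytes than in fibroblasts by 3.64 on the log2 scale (SE 0.40, adjusted p = 0.00146), than in endothelial cells by 3.47 (SE 0.36, adjusted p = 7.17e-04) and than in macrophages by 2.51 (SE 0.48, adjusted p = 0.0300). Cebpg rose more by 1.78 (adjusted p = 9.01e-05), 1.68 (adjusted p = 6.49e-04) and 1.52 (adjusted p = 0.00157), and Nupr1 by 1.97 (adjusted p = 0.0156), 1.63 (adjusted p = 0.0132) and 1.62 (adjusted p = 0.0212). Atf5 differed from fibroblasts alone at this threshold, by 1.67 (adjusted p = 0.0154), with 0.92 against endothelial cells (adjusted p = 0.170) and 0.87 against macrophages (adjusted p = 0.328). Thus 4 members were called against fibroblasts, 3 against endothelial cells and 3 against macrophages, where genes with a larger change in cardiomyocytes made up 1.83%, 1.19% and 0.804% of all genes tested. Without mice 4685 and 5301 the count against fibroblasts was 2, Trib3 and Cebpg. Against macrophages, the call of Trib3 held in 3 of 8 fits without 1 mouse (those without 4685, 4910 or 5301, with adjusted p up to 0.108 in the others), and so did that of Nupr1 (without 4685, 4909 or 5301, up to 0.0928). Nupr1 against fibroblasts was lost without Taz-KO mouse 4685, 4910 or 5300 (adjusted p up to 0.0578), and against endothelial cells without WT mouse 4686 (0.0558). The differences of Ddit3 were -0.01, -0.31 and -0.48 and those of Atf4 0.02, -0.23 and -0.34, none past the threshold.

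Among the 4 main cell types, the order by level was also different in the 2 genotypes for some members. Other types, given as values further below, are not part of this order. Trib3 in WT was highest in endothelial cells (9.83 CPM), then fibroblasts (7.35), macrophages (4.35) and cardiomyocytes (1.72), and no neighbours in this order overlapped. In Taz-KO it was highest in cardiomyocytes (87.9 CPM), which did not overlap the endothelial cells next to them (39.4 CPM), and macrophages (33.2) and fibroblasts (25.9) followed within each other's range. Cebpg in WT was lowest in cardiomyocytes (20.1 CPM), below all other types without overlap, and in Taz-KO the cardiomyocytes (92.8 CPM) came after macrophages (104 CPM). Atf4 in WT was lowest in cardiomyocytes as well, at 35.7 CPM beside 56.9 to 62.9 CPM in the other types, and remained lowest in Taz-KO at 60.3 CPM, where the mice of all types overlapped. Atf5 in WT was highest in fibroblasts, at 72.0 ± 13.3 CPM, and in Taz-KO the mice of all 4 types overlapped.

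**Figure D4:**
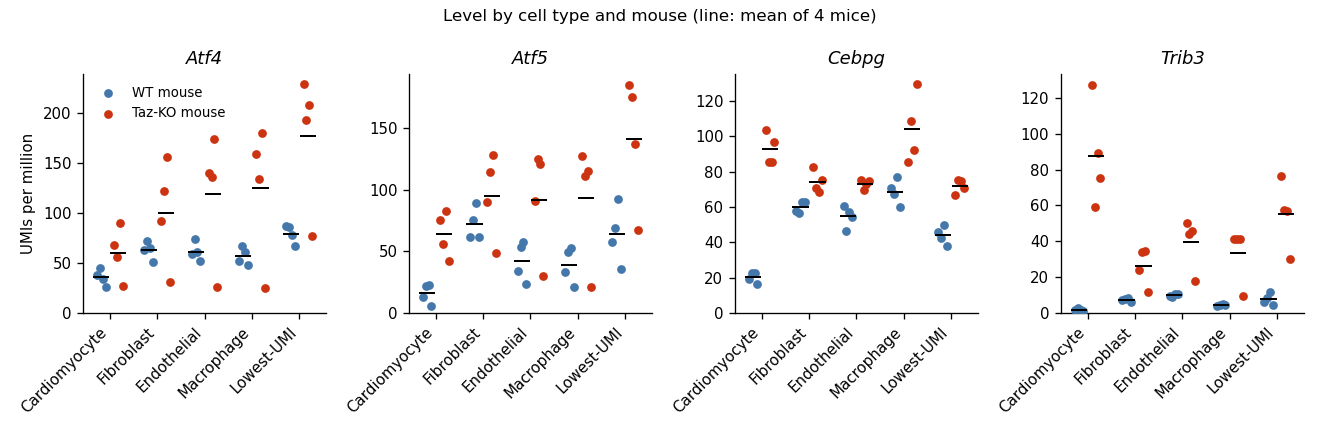
CPM of Atf4, Atf5, Cebpg and Trib3 in the 4 cell types and the lowest-UMI barcodes, 1 point per mouse, WT beside Taz-KO, with a line at the mean of 4 mice. Trib3 has its lowest WT points in cardiomyocytes (1.08 to 2.60 CPM) and its highest Taz-KO points there as well (59.3 to 127 CPM).

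RNA released from broken cells gives UMIs in nuclei that do not make it, so the lowest-UMI barcodes of each library were measured in the same fit. They are a stand-in, as most of them were among the nuclei kept (for example 332 of 349 in mouse 4685, but 0 of 557 in mouse 5301). Trib3 in them was 6.26, 8.06, 11.5 and 4.201 CPM in WT and 76.6, 57.2, 57.0 and 30.2 CPM in Taz-KO (log2 fold change 2.80, SE 0.33, adjusted p = 0.00259). Ddit3 was 22.2, 26.9, 18.5 and 21.8 CPM against 103, 81.9, 70.8 and 57.1 CPM (1.71, SE 0.23, adjusted p = 0.00511). These 2 members were called, where 0.644% of genes were called higher, and Cebpg also had no overlap between genotypes, as did 4.31% of genes. Of the marker lists in these barcodes, the mesothelial one was higher in Taz-KO (158 to 464 CPM against 68.2 to 131 CPM) and the pericyte one lower (584 to 886 CPM against 926 to 1166 CPM), and their part in the result was not tested.

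Relative to these barcodes of its own library, Trib3 in Taz-KO cardiomyocytes was at 1.66, 1.04, 1.57 and 2.49 times their level in mice 4685, 4910, 5300 and 5301, and in WT cardiomyocytes at 0.16 to 0.32 times. In Taz-KO fibroblasts it was at 0.31 to 0.60 times, in endothelial cells at 0.58 to 0.80 times and in macrophages at 0.31 to 0.72 times, below 1 in all 4 mice. Cebpg in Taz-KO cardiomyocytes was at 1.14 to 1.55 times and in WT at 0.41 to 0.53 times, and in macrophages it was above 1 in 8 of 8 mice. Atf4 and Atf5 in cardiomyocytes lay below 1 in all 8 mice, at 0.29 to 0.52 and 0.16 to 0.63 times. In Taz-KO mice 4685, 4910, 5300 and 5301, Nupr1 in cardiomyocytes was at 0.71, 0.67, 0.80 and 1.09 times, Ddit3 at 1.00, 0.71, 1.09 and 1.10 times and Ppp1r15a at 0.68, 0.62, 0.79 and 3.03 times, so that in 3 of 4 mice Nupr1 and Ppp1r15a lay below the level of these barcodes. In mouse 5301 these barcodes held 2 UMIs of Ppp1r15a, 9 of Nupr1, 9 of Trib3 and 17 of Ddit3, so its ratios rest on few counts.

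Cardiomyocyte markers were present in the nuclei of the other cell types. In endothelial nuclei their mean sum was 11230 CPM in WT and 9311 CPM in Taz-KO, above the 3558 and 4205 CPM of the endothelial markers, and in macrophage nuclei it was 11050 and 8959 CPM, above the 6808 and 6592 CPM of the macrophage markers. In fibroblast nuclei they summed to 5802 to 10680 CPM in WT and 2594 to 10150 CPM in Taz-KO, beside 7905 to 9539 CPM and 6330 to 10380 CPM for the fibroblast markers. With 0.2 of the UMIs of each sum subtracted in the profile of the lowest-UMI barcodes, 4 members were called in cardiomyocytes, where Atf5 (log2 fold change 3.30, adjusted p = 0.113) and Ppp1r15a (0.97, adjusted p = 0.101) were lost, and 0 in each of the 3 other types. In cardiomyocytes this share left no counts of Atf5 or Nupr1 in WT mouse 5356 and none of Trib3 in WT mouse 5355. Trib3 was then at a log2 fold change of 1.34 in fibroblasts (adjusted p = 0.556), 1.73 in endothelial cells (adjusted p = 0.138) and 2.91 in macrophages (adjusted p = 0.608). With 0.5 subtracted, a share chosen after the data were seen, Trib3, Cebpg and Nupr1 were called in cardiomyocytes. Counts below 0 were replaced by 0 in these subtractions. In WT cardiomyocytes Trib3, at 0.16 to 0.32 times the level of the lowest-UMI barcodes, and Nupr1, at 0.14 to 0.29 times, had no counts left. Cebpg had none outside WT mouse 4909, at 0.53 times. The 3 calls were thus largely fixed by the subtraction, and nothing is read from them. With this share, the log2 fold change of Trib3 turned to -0.26 in fibroblasts and was 0.92 in endothelial cells. Trib3 in macrophages, and Atf4 and Atf5 in cardiomyocytes, did not pass the filter on low counts. How much of the change of Trib3 outside cardiomyocytes came from free RNA was not tested beyond these values.

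Genes that ATF4 and CHOP are known to activate were also higher. Of 38 such target genes, 33 were called higher in Taz-KO cardiomyocytes, beside 8.48% of all genes, and 0 were called lower. At least 4-fold rises were seen in 24, for which no share over all genes is given. The list was chosen with earlier results of these data known. Their median log2 fold change was 2.62 beside -0.01 over all genes, and stayed at 2.62 with Adm2 at its bound. Adm2, a vasoactive peptide hormone, had 0 UMIs in the 4 WT sums and 524 in Taz-KO, and was at least 228-fold higher than the level that 3 counts over the WT group would give. Fgf21 had 3 UMIs in WT and 803 in Taz-KO (adjusted p = 7.83e-05). Asns rose from 0.685 to 39.7 CPM (log2 fold change 5.72, adjusted p = 2.37e-05) and Slc7a3, a transporter of cationic amino acids, from 0.121 to 6.43 CPM (5.58, adjusted p = 4.48e-06). The target genes called were 5 of 37 tested in fibroblasts, 10 of 37 in endothelial cells, 5 of 35 in macrophages and 16 of 36 in the lowest-UMI barcodes, where 0.255%, 0.36%, 0.179% and 0.644% of all genes were called higher. The 5 not called in cardiomyocytes were Vldlr, Wars, Ddit4, Slc38a2 and Slc1a5, and they are named because they are the exceptions.

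Among 19 other bZIP factors that can pair with the members or share their sites, 4 rose in cardiomyocytes and 0 fell, beside 8.48% called higher over all genes. Jdp2, a repressor that binds the same sites as ATF3, went from 11.6 to 46.7 CPM (log2 fold change 1.90, adjusted p = 4.84e-04) and Atf6, the membrane-bound sensor of unfolded protein, from 305 to 742 CPM (1.17, adjusted p = 0.00862). Nfe2l2, the oxidative stress factor NRF2, rose by 0.97 (adjusted p = 0.0161) and Mafg, one of its small partners, by 0.76 (adjusted p = 0.0262). All 4 were without overlap between genotypes. Leaving out 1 mouse gave 3 to 5 such genes, and leaving out mice 4685 and 5301 together gave 1, no more than the 6.46% of all genes in that fit.

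In the upstream machinery 1 of 16 genes was called higher and 1 lower, a share no larger than the 8.48% and 6.37% over all genes, so nothing is read from the list. Of these genes for eIF2alpha kinases, phosphatase subunits and the exchange factor eIF2B, Eif2b3, an eIF2B subunit, rose by 0.69 (adjusted p = 0.00643), and Dele1, which relays mitochondrial stress to a kinase of eIF2alpha, fell by 0.65 (adjusted p = 0.0133). The levels were 30.8 and 54.2 CPM for Eif2b3 and 40.1 and 27.5 CPM for Dele1 in WT and Taz-KO. None of 18 endoplasmic reticulum chaperone genes was called by edgeR, 3 had an unadjusted p below 0.05, and DESeq2 called 1. Without mouse 5301, edgeR called 2. Shares over all genes are not given for these counts of chaperone genes, and nothing is read from them.

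Immediate early genes, which respond to handling and dissociation and include partners of ATF3, were not called higher. Of 22, 0 were called higher and 3 lower by edgeR, beside 6.37% of all genes called lower. An unadjusted p below 0.05 was reached by 7, and DESeq2 called 7 lower. Shares over all genes are not given for these 2 counts or for the fits without 1 mouse, and nothing is read from them. Without mouse 4685, or without mouse 4910, edgeR called 0 lower, and without WT mouse 5355 it called 5. Nr4a1 was the one without overlap between genotypes, at 199, 45.3, 39.9 and 52.2 CPM in WT and 36.3, 19.96, 12.6 and 19.8 CPM in Taz-KO (log2 fold change -2.07, SE 0.59, adjusted p = 0.0453). WT mouse 4686 was far above the other WT mice for it, and was also the highest WT mouse for Atf3.

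**Figure D5:**
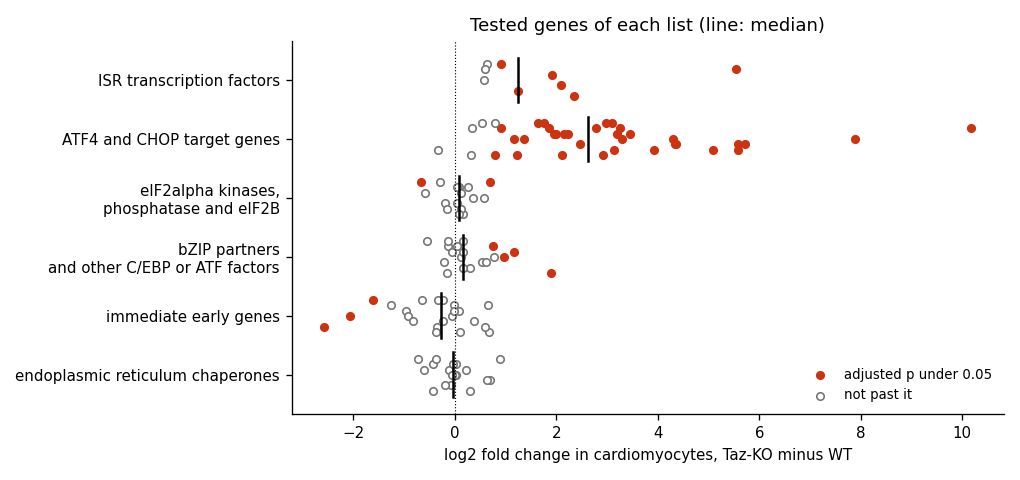
Log2 fold changes in cardiomyocytes, Taz-KO over WT, of the genes in each list, 1 point per gene, with the median as a line and called genes marked. The target genes have a median of 2.62 and the 9 members of 1.25, whereas the median of the chaperones is -0.04 and that of the immediate early genes -0.27; the point of Adm2 depends on the prior count of the fit, as it had 0 UMIs in WT.

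The genes whose level ran most alike with each member were found over 32 sums of 4 cell types and 8 mice, which share libraries and mice, by Pearson's r of log2(CPM + 1) among 12399 genes. For Trib3 these were Gars (0.958), Asns (0.957) and Slc7a5 (0.938). Ddit3 ran with Gyg (0.923), Extl1 (0.913) and Slc19a2 (0.897), and Cebpg with Fam129a (0.927), Arhgef2 (0.922) and Cpne2 (0.910). Members themselves were among the nearest genes of Atf5, with Nupr1 at 0.911, and of Ppp1r15a, with Ddit3 at 0.817. Atf4 ran with Slc25a39 (0.959), Fmod (0.950) and Sem1 (0.939), none of them in the lists above. For Atf3 the highest was Mapkapk3 (0.795) and for Cebpb Trappc6a (0.921). These values describe levels and differences between cell types as well as between genotypes.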

How the data were processed

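Nuclei of whole hearts from 4 WT and 4 Taz-KO mice were sequenced, 1 library per mouse, and genotypes were taken from the labels. The files deposited by the authors hold raw counts of UMIs for each gene in each barcode, from Cell Ranger 6.0.1 on mm10 with intron reads included, per the labels and the study's methods. Correction for ambient RNA and removal of doublets came later and are not in these counts. Droplets below the cell call are not in the files, so free RNA was gauged from the barcodes with the fewest UMIs, a share of 0.1 of each library.

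Barcodes with at least 800 UMIs (without the 13 mitochondrial genes) and 250 genes were kept, which left 167495 of 169193. Doublets were scored per mouse with artificial doublets and the top 0.8% per 1000 nuclei, at most 10%, removed. After 2000 variable genes and 15 principal components corrected for the mouse, a graph of 20 neighbours was clustered at resolution 0.9 into 36 clusters (Python 3.11.15, numpy 2.4.6, scipy 1.17.1, scikit-learn 1.9.0, python-igraph 0.11.9). How cluster names follow from marker scores was settled with scores in view, and a name needed 3 markers. The 38779 unnamed nuclei entered no main test of a cell type. Many were among the lowest-UMI barcodes, which were tested: in mouse 4685, 332 of these barcodes were kept and 34 were named. Typing by 2 markers did not use cluster names and could include unnamed nuclei.

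UMIs were summed per mouse and cell type, with at least 10 nuclei, and each type was fitted in edgeR 4.0.16 (R 4.3.3) by the robust quasi-likelihood F test after filterByExpr and TMM, with Benjamini-Hochberg adjustment over all genes tested. The interaction fits had the mouse as a block. Shares of nuclei were compared by exact permutation tests over mice, after thinning to 1000 UMIs. p-values measure the spread between these mice. Counts of 0 were bounded by 3 counts over the group, which covers counting error only. The tests were checked on simulated data. DESeq2 1.42.0, RLE size factors, no filter, a stricter threshold, mice left out, typing by 2 markers (at least 2 UMIs, 2-fold over other types), doublets kept and subtraction of ambient RNA were the alternatives. All 9 members are described, and from each other list up to 4 genes called with the largest change and no overlap. The members and lists were chosen with earlier results of these data known. Positions are from GENCODE on GRCm38 and promoters from RefSeq.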

Additional observations from a re-analysis of the deposited data

Results flagged for a closer look

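Of 90 groups of 4 mice (9 members in 5 sets of nuclei or barcodes and 2 genotypes), 5 held a mouse far from the others, and chance alone gives about 1 in 20. In macrophages of Taz-KO mice, mouse 5301 was at 21.1 CPM for Atf5, with the nearest mouse at 111 CPM, and at 9.51 CPM for Trib3, with the nearest at 41.0 CPM. WT mouse 5356 was high for Atf3 in macrophages, at 12.7 CPM beside 8.17 CPM for the nearest mouse, and low for Nupr1 in endothelial cells, at 6.41 CPM beside 24.3 CPM. Taz-KO mouse 4685 was at 23.7 CPM for Atf3 in the lowest-UMI barcodes, with the nearest at 8.58 CPM.

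The genotype difference was larger in cardiomyocytes than in another cell type in 10 combinations past the interaction test of edgeR. Such genes made up 1.83%, 1.19% and 0.804% of all genes tested against fibroblasts, endothelial cells and macrophages. The calls of Nupr1, and of Trib3 over macrophages, were lost in some fits with a mouse left out. On the log2 scale, the excess over fibroblasts was 1.67 for Atf5 (SE 0.30), 3.64 for Trib3 (SE 0.40), 1.78 for Cebpg (SE 0.13) and 1.97 for Nupr1 (SE 0.36). Over endothelial cells it was 3.47 for Trib3 (SE 0.36), 1.68 for Cebpg (SE 0.16) and 1.63 for Nupr1 (SE 0.27), and over macrophages 2.51 for Trib3 (SE 0.48), 1.52 for Cebpg (SE 0.18) and 1.62 for Nupr1 (SE 0.29).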

How the results depend on the processing

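No paired analysis was made, because the mouse numbers of the 2 genotypes are not shared and no source used here pairs the mice. Trib3, Cebpg and Nupr1 were called in cardiomyocytes under all 16 alternatives, with adjusted p up to 0.00367, 0.0280 and 0.0324, except that at an adjusted p below 0.001 with a log2 change over 0.58 just 2 members passed there and 0 in each other set. Among these, the ambient share of 0.5 gives no support. It left no Trib3 or Nupr1 counts in WT cardiomyocytes, and Cebpg counts in WT mouse 4909 alone. With 1 mouse left out, 5 to 6 members were called in cardiomyocytes, 0 to 2 in fibroblasts, 0 to 3 for the endothelium, 0 to 4 in macrophages and 2 to 3 in the lowest-UMI barcodes. The highest counts outside cardiomyocytes came without Taz-KO mouse 5301. Beyond the shares over all genes given above, none is given for the fits of this section. Nothing is therefore read from how the counts of members move between them. With mice 4685 and 5301 both left out the counts were 3 in macrophages, 3 in endothelial cells and 2 in fibroblasts. DESeq2 called 2 members in endothelial cells, 2 in macrophages and 4 in the lowest-UMI barcodes, no filter gave 2 in endothelial cells and 2 in macrophages, and typing by 2 markers gave 2 in macrophages. Subtracting an ambient share of 0.2 gave 0 in each of fibroblasts, endothelial cells and macrophages. A share of 0.5, chosen after seeing the data, gave 3 in cardiomyocytes, 0 in the others, and 16 target genes in cardiomyocytes. Target genes numbered 32 to 33 with 1 mouse left out. Members with a larger change in cardiomyocytes numbered 3 to 4 against fibroblasts and 2 to 3 against endothelial cells with 1 mouse left out. Against macrophages they numbered 1 to 3, with 1 in the fits without mouse 4686, 5300, 5355 or 5356. Without mice 4685 and 5301 the count was 2 against fibroblasts. Shares of nuclei did not overlap for 5 to 6 members with 1 mouse left out, where no exact test can pass and no share over all genes was measured. The difference in nuclei with 2 or more members was 5.99 to 8.86 percentage points with 1 mouse left out (exact permutation p = 0.0571, the smallest such a split allows), 7.04 without both mice (exact permutation p = 0.133), 5.63 with typing by 2 markers, 19.9 at 2000 UMIs and 35.7 without thinning (exact permutation p = 0.0857).

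Atf5 in cardiomyocytes lost its call with an ambient share of 0.2 (log2 fold change 3.30, adjusted p = 0.113) and Ddit3 with 0.5 (0.80, adjusted p = 0.260). The share of 0.2 left no Atf5 counts in WT mouse 5356. Signs turned for members that no test called, and for Trib3 in fibroblasts. In cardiomyocytes these were Atf3 without both mice (-0.28) and Cebpb with an ambient share of 0.5 (-2.37). In fibroblasts with that share they were Atf4 (-0.25), Atf5 (-0.71), Trib3 (-0.26), Cebpg (-0.13) and Ppp1r15a (-0.14). Atf3 in macrophages ran from -0.17 to 0.69 with 1 mouse left out and was -0.29 without both. For the excess over fibroblasts, the ranges with 1 mouse left out were -0.10 to 0.23 for Atf4 (-0.17 without both, -0.15 by 2 markers), -0.77 to 0.19 for Atf3, -0.31 to 0.32 for Ddit3 (0.14 by DESeq2, 0.040 by RLE) and -0.10 to 0.28 for Cebpb (-0.17 without both, -0.074 by 2 markers). Over endothelial cells they were -0.88 to 0.10 for Atf3, -0.38 to 0.031 for Cebpb and -0.11 to 0.35 for Ppp1r15a (-0.23 without both, -0.22 by 2 markers), and over macrophages -0.19 to 0.70 for Atf3 (-0.30 by 2 markers). The cause was not tested.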

Other observations

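Cells outside the 4 main types were not tested and are given as values. In smooth muscle nuclei, Atf4 stood at 71.8 ± 11.03 CPM in WT and 180 ± 77.2 CPM in Taz-KO and Nupr1 at 45.7 ± 12.8 and 70.4 ± 7.78 CPM (SD, n = 4), each without overlap of mice, while Trib3, at 8.76 ± 2.05 and 32.9 ± 18.8 CPM, overlapped through Taz-KO mouse 5301 (6.45 CPM from 80 nuclei), with the other Taz-KO mice at 32.9, 48.7 and 43.4 CPM and WT at most 10.2 CPM. In lymphatic endothelial nuclei Trib3 was 17.9 ± 3.99 and 35.1 ± 3.66 CPM, without overlap, with 13 nuclei in Taz-KO mouse 4685 and 34 in 5301. In mesothelial nuclei Trib3 was 2.72 ± 1.15 and 17.1 ± 11.03 CPM, also without overlap, although mouse 5301, at 4.26 CPM, was close to the WT maximum of 3.94 CPM. In pericytes Cebpg, at 41.9 ± 3.64 and 69.3 ± 21.5 CPM, did not overlap, and Trib3, at 4.37 ± 1.15 and 30.7 ± 18.6 CPM, did, again through mouse 5301 (3.02 CPM from 134 nuclei), with the others at 37.8, 38.6 and 43.4 CPM and WT at most 5.42 CPM. Taz-KO mouse 4685 had 13 pericyte nuclei. In nuclei of unnamed clusters Trib3 was 5.28 ± 0.439 CPM in WT and 48.7 ± 14.5 CPM in Taz-KO, Cebpg 54.2 ± 3.22 and 79.1 ± 4.56 CPM, and Nupr1 21.3 ± 4.88 and 44.8 ± 18.01 CPM, none with overlap. In adipocytes, where 3 Taz-KO mice had enough nuclei, all 9 members overlapped, for 7 of them (all but Atf3 and Cebpg) through mouse 5301 alone, which had 19 nuclei. Apart from 5301, just Taz-KO mice 4910 and 5300 remain, and the share of all genes that would then not overlap was not measured. Nothing is read from the number of such members. Trib3 was 5.85 ± 1.45 CPM in 4 WT mice and 21.4 ± 18.6 CPM in 3 Taz-KO mice (0 CPM in 5301, 30.6 and 33.7 CPM in 4910 and 5300, WT at most 7.93 CPM), Atf4 38.6 ± 11.5 and 78.3 ± 46.4 CPM, Ddit3 20.02 ± 11.6 and 47.9 ± 21.1 CPM, Nupr1 17.4 ± 3.59 and 38.8 ± 15.98 CPM, and Cebpg 69.6 ± 6.68 and 67.3 ± 12.0 CPM.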
